A study of Mus musculus with 4 samples.

Results

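The dystrophin-glycoprotein complex was described here by 8 genes, Dmd, Utrn, Dag1, Sgca, Sgcb, Sgcd, Sntb1 and Dtna, taken by name from the mRNA values. They held 78 of the 75959 RefSeq transcripts and 8 of the 21878 genes listed. The RNA came from C3H10T1/2, a mouse mesenchymal stem cell line that can form muscle, fat and cartilage cells, and was depleted of ribosomal RNA and sequenced with a stranded protocol. Untreated cells gave 2 samples (replicates 1 and 2). The other group, replicates 101 and 102, received 20 μM 5-AZA (5-azacytidine, a cytidine analogue that lowers DNA methylation) for 72 hours and was then kept in fresh medium for 21 days. No culture time is given for the untreated samples, so time in culture and treatment cannot be told apart. Nothing in the labels says whether the samples came from separate cultures, and p-values then measure only the spread between these samples.

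In muscle, dystrophin links the actin cytoskeleton to dystroglycan in the cell membrane, and dystroglycan binds laminin outside the cell. Sarcoglycans sit beside dystroglycan in the membrane and hold it in place, and syntrophins and dystrobrevins bind dystrophin inside the cell and bring in signalling proteins. Utrophin is a close relative of dystrophin that serves in many tissues and at the neuromuscular junction. Loss of dystrophin or of the alpha, beta or delta sarcoglycan causes muscular dystrophy.

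Levels are given in FPKM, which scales fragments to transcript length and to sequenced fragments, summed over the transcripts of a gene. limma was fitted to log2(FPKM + 0.1) of the 13199 genes with a mean of at least 0.1 FPKM, and genes that moved more than 2-fold at an adjusted p-value below 0.05 were called. The added 0.1 makes the fold changes of low genes too small. The number of fragments behind a single FPKM value is not given. Of the 8 members 7 were tested, and Dmd was too low. After 5-AZA 2 of the 7, Sgca and Sntb1, were called higher and 0 lower, against 13.1% of all genes tested called higher and 1.32% called lower. Quantile normalization gave 1041 genes higher and 886 lower in place of 1724 and 174, and left the calls of the 7 members as they were. In bulk RNA, fewer cells of a type and less RNA per cell cannot be told apart. The median log2 fold change was -0.13 over the 7 and 0.05 over all genes tested. The groups did not overlap in 6 of the 7, and in 62.2% of all genes tested.

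**Figure D1:**
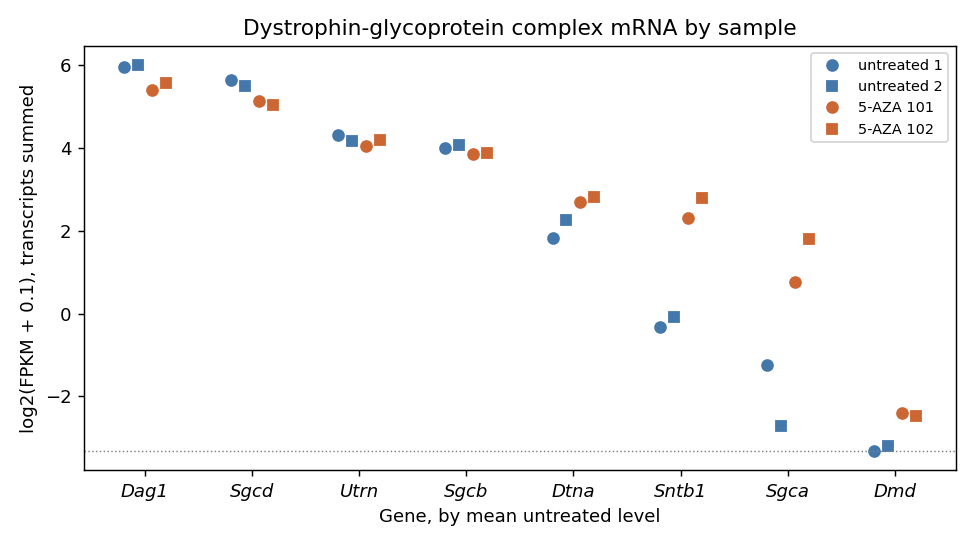
Level of each member in the 4 samples as log2(FPKM + 0.1), with blue for untreated and orange for 5-AZA samples, circles for replicates 1 and 101 and squares for replicates 2 and 102, and a dotted line at the value of 0 FPKM. Sntb1 and Sgca lie well apart between the groups, the 4 most abundant members move little, and Dmd stays near the dotted line in every sample.

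The order of the levels was largely the same in both groups. In the untreated samples it ran from Dag1 (63.0 FPKM) over Sgcd (47.6), Utrn (18.9), Sgcb (16.4), Dtna (4.08), Sntb1 (0.771) and Sgca (0.188) to Dmd (0.00477), and no neighbours in this order had overlapping values. After 5-AZA the order of the means was unchanged, but Dtna (6.65 FPKM) and Sntb1 (5.84) now overlapped.

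Dmd (chrX:82814664-85205050, GRCm38.p6), which encodes dystrophin, was listed at 0 FPKM in untreated replicate 1 and at 0.00955 in untreated replicate 2. The 5-AZA samples had 0.0898 and 0.0810 FPKM. Both 5-AZA values were thus above both untreated values, and all 4 lay below 0.1 FPKM. Of 10 genes that every cell uses, such as Actb and Tbp, each was at 1 FPKM or more in both groups, so the listing at 0 was not shared by such genes. Without the limit on low values Dmd differed by 0.82 on the log2(FPKM + 0.1) scale (standard error 0.07, adjusted p = 0.0254, limma, 17510 genes). This was below the 2-fold threshold on that scale and was not called. The added 0.1 was larger than all 4 Dmd values, so the difference does not give the size of the change. No fold is given against a group with a value of 0.

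Each of the 16 Dmd transcripts had a mean below 0.1 FPKM and none was tested. All 16 were listed at 0 in untreated replicate 1. The highest mean belonged to NM_007868.6, with 0, 0.00191, 0.00959 and 0.0319 FPKM in untreated replicates 1 and 2 and 5-AZA replicates 101 and 102. The 2 treated samples placed most of their Dmd signal in different transcripts. In 5-AZA replicate 101, XM_017318379.1 held 40.7% and NM_001314038.1 held 32.2% of the sum, and both were at almost 0 in replicate 102. In 5-AZA replicate 102, XM_006527768.3 held 42.4% and NM_007868.6 held 39.4%. These transcripts are named after their values were seen. NM_001314034.1, NM_001314035.1, NM_001314036.1 and NM_001314037.1 were at 0 in 3 samples and below 1e-10 FPKM in the fourth.

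The tested genes with the profile most like that of Dmd, by Euclidean distance over log2(FPKM + 0.1) of the 4 samples, were Necab1 (0.93), Plcb2 (0.94) and Trim66 (0.96). Each had a mean just above the limit of 0.1 FPKM, so the likeness is largely one of low level.

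Utrn (chr10:12382187-12869888), which encodes utrophin, was at 20.0 and 17.8 FPKM in the untreated samples and at 16.4 and 18.1 FPKM in the 5-AZA samples. The groups overlapped. The log2 fold change was -0.13 (standard error 0.12, adjusted p = 0.486), with a 95% interval from -0.40 to 0.14, so a change of 2-fold lay outside the interval. Utrn was the more abundant of the dystrophin and utrophin pair in every sample.

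Dag1 (chr9:108204861-108263977) encodes dystroglycan, whose precursor is cut into the laminin-binding alpha subunit and the membrane-spanning beta subunit. It had the highest level of the 8 in every sample, with 61.9 and 64.0 FPKM untreated and 42.5 and 47.8 FPKM after 5-AZA. Both treated values were lower than both untreated ones. The log2 fold change was -0.48 (standard error 0.10, 95% interval -0.72 to -0.25, adjusted p = 0.00877), below 2-fold and not called. At an adjusted p-value below 0.05 and any fold, 18.6% of all genes were higher and 5.93% lower. Dag1 kept an adjusted p below 0.05 under 7 of 13 alternatives. With its most abundant transcript alone in place of the sum, the difference was -0.12 (adjusted p = 0.590).

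Of the 3 sarcoglycans among the members 1, Sgca, was called. Sgca (chr11:94962777-94976327), the alpha subunit, which is largely restricted to striated muscle, was at 0.324 and 0.0522 FPKM in the untreated samples and at 1.59 and 3.36 FPKM in the 5-AZA samples. The groups did not overlap, and the replicates of each group differed by more, on the log2 scale, than those of any other tested member. The means were 0.188 ± 0.192 and 2.48 ± 1.25 FPKM (SD, n = 2 in each group). Sgca rose by a log2 fold change of 3.25 (standard error 0.52, 95% interval 2.07 to 4.43, adjusted p = 0.00195). Its call was lost without 5-AZA replicate 101 (3.77, adjusted p = 0.143), without 5-AZA replicate 102 (2.73, adjusted p = 0.207) and without the limit on low values (adjusted p = 0.113). An omission leaves 1 sample in a group, so the gene's own spread comes from the other group, here the 2 untreated values. In the fit, limma then draws this spread toward that of other genes at a like level. Without untreated replicate 1 the log2 fold change was 3.99, and without untreated replicate 2 it was 2.51, both called. There the gene's own spread comes from the 2 treated values and is drawn toward that of other genes in the same way. With a pseudocount of 1 the log2 fold change of Sgca was 1.51, with 0.01 it was 4.01 and with quantile normalization 2.43, each called.

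Sgcb (chr5:73632749-73647737), the beta subunit, which many tissues express, was at 16.0 and 16.7 FPKM untreated and at 14.4 and 14.6 FPKM after 5-AZA. The difference of -0.17 on the log2 scale did not pass (standard error 0.11, 95% interval -0.43 to 0.08, adjusted p = 0.318). Sgcd (chr11:46971077-47989451), the delta subunit, was at 49.96 and 45.2 FPKM untreated and at 35.1 and 33.1 FPKM after 5-AZA. Its groups did not overlap, and the log2 fold change of -0.48 (standard error 0.10, 95% interval -0.72 to -0.25) had an adjusted p of 0.00945 but was under 2-fold and not called. It kept an adjusted p below 0.05 under 6 of 12 alternatives. In a complete sarcoglycan complex the subunits are present together. The level of Sgcb was 49.4 and 320.3 times that of Sgca in the untreated samples and 9.06 and 4.35 times in the 5-AZA samples.

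Promoter sequence from RefSeq (GRCm38.p6, 250 bases before to 50 after a start) was used for 6 of the 8 genes, with 8 starts in all. Sntb1 had no promoter entry, and Dtna was left out of the search. CG dinucleotides, the usual sites of DNA methylation in mammals, are shown in capitals, 5′ to 3′ along the gene, for Sgca, which was called higher, for Sgcb, which was not called, and for the first of 2 starts of Dmd, which stayed near 0. Sgca lies at chr11:94976278-94976577 (minus strand), Sgcb at chr5:73647688-73647987 (minus strand) and the Dmd start at chrX:82948620-82948919 (plus strand).
Sgca: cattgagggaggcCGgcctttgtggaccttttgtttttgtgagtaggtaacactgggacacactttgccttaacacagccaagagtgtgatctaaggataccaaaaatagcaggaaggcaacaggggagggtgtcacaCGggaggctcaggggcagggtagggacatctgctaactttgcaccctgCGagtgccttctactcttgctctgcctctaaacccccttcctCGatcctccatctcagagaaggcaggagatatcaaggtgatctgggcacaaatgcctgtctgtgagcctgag
Sgcb: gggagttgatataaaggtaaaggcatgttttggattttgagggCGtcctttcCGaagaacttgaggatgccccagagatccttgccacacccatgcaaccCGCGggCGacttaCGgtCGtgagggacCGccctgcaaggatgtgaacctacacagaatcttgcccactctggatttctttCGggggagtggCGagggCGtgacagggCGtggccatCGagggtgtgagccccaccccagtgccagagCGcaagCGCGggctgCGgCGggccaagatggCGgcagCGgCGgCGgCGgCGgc
Dmd: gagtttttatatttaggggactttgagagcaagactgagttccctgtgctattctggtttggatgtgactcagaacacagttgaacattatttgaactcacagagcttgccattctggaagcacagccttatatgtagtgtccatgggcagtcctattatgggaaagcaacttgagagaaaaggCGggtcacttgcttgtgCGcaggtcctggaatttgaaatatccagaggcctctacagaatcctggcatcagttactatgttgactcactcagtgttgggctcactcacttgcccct

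The Sgca window held 4 CG dinucleotides, the Sgcb window 24 and the Dmd window 2, against a median of 7 over 32851 windows. Windows with as few or fewer made up 38.0%, 81.6% and 23.3% of all. The other windows held 2 for Utrn, 30 and 47 for Dag1, 12 for Sgcd and 14 for the second Dmd start. The motif CANNTG, the general site of muscle bHLH factors, was found 2 times in the Sgca window, 0 times in the Sgcb window and 3 times in the first Dmd window (it reads the same on both strands), and 72.3% of all windows held it. CAGCTG, which CANNTG includes, was in none of the 8 windows and in 16.3% of all. The first Dmd window held the only MEF2 motif and the only CArG box of the 8 windows, searched on the printed strand by motifs that read the same on both, and 3.19% and 1.63% of all windows held them. The windows of Utrn (chr10:12861686-12861985) and Sgcd (chr11:47379276-47379575) and both Dmd windows lie inside the gene, away from its listed 5′ end. Which start these cells use was not measured.

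Sntb1 (chr15:55636388-55907302) encodes a syntrophin, an adaptor that binds dystrophin, utrophin and dystrobrevin and carries signalling proteins such as nitric oxide synthase. It was at 0.704 and 0.839 FPKM in the untreated samples and at 4.88 and 6.81 FPKM in the 5-AZA samples. All values of one group lay beyond those of the other. The means were 0.771 ± 0.0956 and 5.84 ± 1.37 FPKM (SD, n = 2 in each group), and Sntb1 rose by a log2 fold change of 2.75 (standard error 0.23, 95% interval 2.22 to 3.29, adjusted p = 5.20e-05). Without 5-AZA replicate 102 the change was 2.52 with an adjusted p of 0.0541. With a pseudocount of 1 it was 1.94, still called. With the curated NM transcript alone, NM_016667.3, it was 1.75 (adjusted p = 0.274, limma). That transcript was at almost 0 untreated and at 0.808 and 0.0245 FPKM in 5-AZA replicates 101 and 102. The predicted transcript XM_006520671.3 held 100% of the signal in both untreated samples and 83.4% and 99.6% in the 5-AZA samples.

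Dtna encodes alpha-dystrobrevin, a relative of dystrophin that binds it and the syntrophins. It was at 3.44 and 4.72 FPKM untreated and at 6.39 and 6.92 FPKM after 5-AZA, with no overlap. The log2 fold change of 0.71 (standard error 0.19, 95% interval 0.28 to 1.13, adjusted p = 0.0248) was under 2-fold and not called, and its adjusted p stayed below 0.05 under 4 of 13 alternatives.

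**Figure D2:**
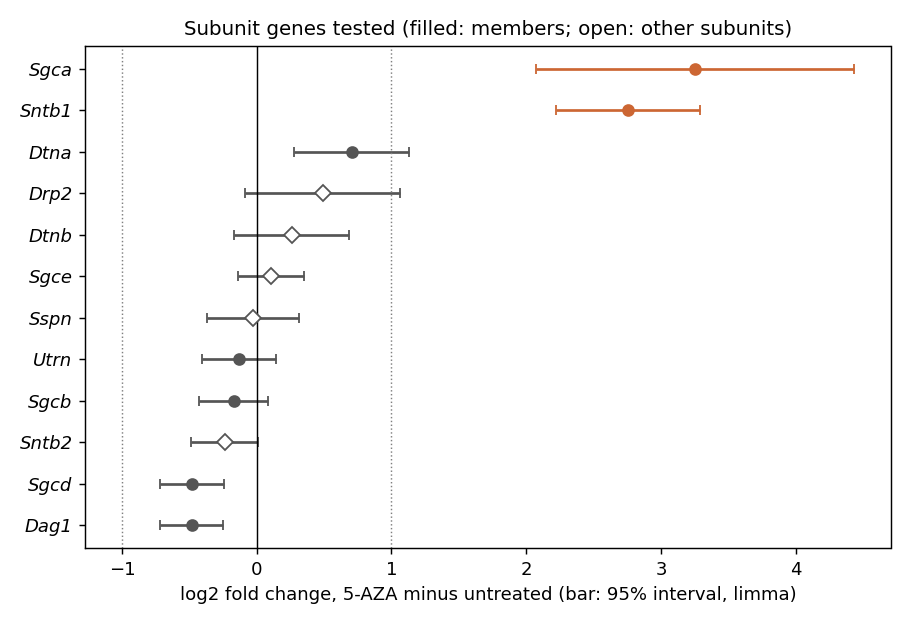
Log2 fold change of 5-AZA against untreated for the 7 members tested (filled circles) and the 5 other subunit genes tested (open diamonds), with 95% intervals from limma, dotted lines at 2-fold and orange for genes called. Sgca and Sntb1 lie past 2-fold with their whole interval, and every other interval reaches below 2-fold.

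Markers of skeletal muscle moved with Sgca and Sntb1. The summed level of 6 (Acta1, Ckm, Myh3, Myog, Mylpf and Tnnt3) was 1.14 and 1.05 FPKM in the untreated samples and 729 and 1113 in the 5-AZA samples, and 6 of 6 were called higher, with a median log2 fold change of 8.32. Markers of adipocytes moved too, from 29.6 and 11.97 to 1049 and 1434 FPKM in sum, with 5 of 5 called higher. Of 5 cardiac markers Nppa and Myl7 were listed at 0 in all samples and 2 were called higher, with sums of 0.321 and 0.370 against 1.62 and 3.51 FPKM. Of 5 smooth muscle markers 2 were called higher, of 5 mesenchymal markers 1, of 5 Schwann cell markers 2 higher and 2 lower, of 4 macrophage markers 1 higher (with Adgre1 at 0) and of 4 neuronal markers 0 (with Snap25 at 0). The smooth muscle sums were 193 and 198 against 213 and 296 FPKM, most of it Acta2 (0.30), while Tagln and Cnn1 were called higher. The mesenchymal sums were 2601 and 2706 against 1621 and 1810 FPKM, most of it Vim. By log2 fold change Vim (-0.87) and Col1a1 (-0.52) were lower, and Pdgfra (0.74), Ly6a (0.73) and Thy1 (3.98) higher. The Schwann cell, macrophage and neuronal sums stayed below 4 FPKM. The part of these markers in the results on the members was not tested. Ckm, Myh3, Myog, Cidec, Myh6, Cnn1 and Sox10 had untreated means below 0.1 FPKM. They passed the limit only through the 5-AZA samples and could only come out higher.

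By transcript, 43 of the 78 member transcripts passed the limit and 35 did not. Of the 43, 1 was called higher (XM_006520671.3 of Sntb1) and 0 lower, against 2.1% of all transcripts tested called higher and 0.262% called lower. XM_006520671.3 was at 0.704 and 0.839 FPKM untreated and at 4.07 and 6.79 after 5-AZA, which was higher by 2.62 on the log2 scale (adjusted p = 0.0300, standard error 0.37). This call was lost without any 1 of the 4 samples (adjusted p from 0.159 to 0.262). The second Sntb1 transcript, NM_016667.3, held 16.6% of the sum in 5-AZA replicate 101 and 0.360% in replicate 102.

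The division of Sgca among its transcripts differed between replicates. In untreated replicate 1, 88.0% of the Sgca signal was in XM_017314395.1, and in untreated replicate 2, 99.8% was in NM_009161.4. In the 5-AZA samples NM_009161.4 held 77.2% and 34.96%. NM_009161.4, the most abundant Sgca transcript, was nevertheless close between replicates in FPKM, at 0.0311 and 0.0521 untreated and 1.23 and 1.18 after 5-AZA, with a log2 fold change of 3.20 that did not pass over all transcripts (standard error 0.58, adjusted p = 0.0615).

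For the other members the most abundant transcript did not pass either. NM_001276486.1 of Dag1 had a log2 difference of -0.12 (adjusted p = 0.729) and held between 35.6% and 55.3% of the sum. XM_006512707.3 of Utrn differed by -0.30 (adjusted p = 0.624), among 14 transcripts that were all tested. XM_006533307.3 of Sgcd differed by -0.32 (adjusted p = 0.355), while the curated transcript NM_011891.4 stayed below 0.1 FPKM in each sample. Sgcb has the single transcript NM_011890.4. Dtna has 29 transcripts, of which 11 were tested. Its most abundant, NM_010087.4, was at 0.159 and 0.714 FPKM untreated and at 1.74 and 2.55 after 5-AZA, and the difference of 2.27 had an adjusted p of 0.193.

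**Figure D3:**
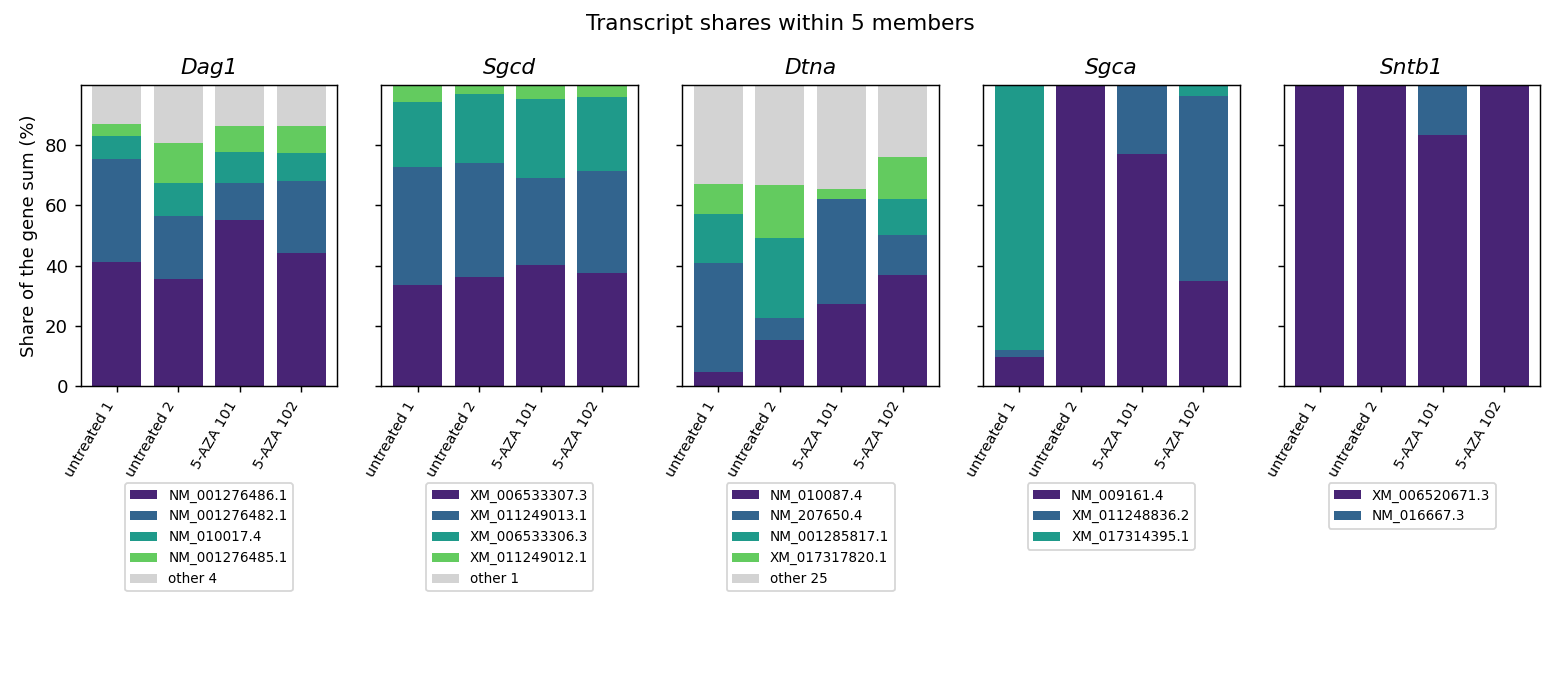
Share of each gene's FPKM sum, in percent, held by its 4 most abundant transcripts and by the others together (grey) in each sample, for Dag1, Sgcd, Dtna, Sgca and Sntb1. XM_011249013.1 leads Sgcd in both untreated samples (39.1% and 38.1%) and XM_006533307.3 after 5-AZA (40.2% and 37.5%), and the leading Sgca transcript is XM_017314395.1 in untreated replicate 1, XM_011248836.2 in 5-AZA replicate 102 and NM_009161.4 in the other samples.

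Of 9 further subunit genes listed, 5 were tested. limma called 0 of them, 0 had an unadjusted p-value below 0.05, and the median difference was 0.11 on the log2 scale. Among all genes tested, 13.1% were called higher and 1.32% lower. The most abundant were Sntb2, a syntrophin related to Sntb1, with -0.24 (adjusted p = 0.158), Sgce, the broadly expressed relative of Sgca, with 0.11 (adjusted p = 0.537), and Sspn, the membrane protein sarcospan, with -0.02 (adjusted p = 0.933). Sgce was at 20.4 and 19.0 FPKM untreated and at 21.5 and 21.0 FPKM after 5-AZA, and was thus above Sgca in every sample. The level of Sntb2 was 46.7 and 42.1 times that of Sntb1 in the untreated samples and 5.57 and 4.51 times in the 5-AZA samples. Sgcz, Sntg2 and Dytn were listed at 0 in all 4 samples.

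Of 18 genes for the sugar chains of dystroglycan, through which it binds laminin, 17 were tested and 0 were called in either direction by limma, while 2 had an unadjusted p-value below 0.05. Their median log2 fold change was -0.06. Over all genes tested it was 0.05, with 13.1% called higher and 1.32% lower. The most abundant were Dpm3 and Dpm2, subunits of dolichol-phosphate mannose synthase, and Tmem5, a xylosyltransferase also named Rxylt1. Dpm3 was at 31.8 and 33.4 FPKM untreated and at 39.4 and 52.8 FPKM after 5-AZA, and its difference of 0.48 was under 2-fold (adjusted p = 0.0373). Tmem5 differed by -0.08 (adjusted p = 0.726) and Dpm2 by -0.24 (adjusted p = 0.153).

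Of 13 extracellular ligands and matrix partners 11 were tested. Called were 2, both higher, and the median was 0.03, against 13.1% called higher and a median of 0.05 over all genes tested. Lama2, the laminin alpha chain of the muscle basement membrane, was at 0.272 and 0.291 FPKM untreated and at 1.89 and 1.93 FPKM after 5-AZA, a log2 fold change of 2.40 (standard error 0.26). Lama5, a broadly expressed alpha chain, rose by 1.01 (standard error 0.26, adjusted p = 0.0218), just over 2-fold, and its call was lost under 8 of 13 alternatives, among them the omission of untreated replicate 2 (adjusted p = 0.125), 5-AZA replicate 101 (0.171) or 5-AZA replicate 102 (0.165). The Lama2 call was lost with NM transcripts alone (adjusted p = 0.0624). Among those not called, Bgn, a small proteoglycan, was the most abundant and differed by -0.26 (adjusted p = 0.102). Lama4, at 49.1 to 50.6 FPKM in all 4 samples, differed by -0.02 (adjusted p = 0.905). Nid1, which links laminin to collagen, differed by 0.97 with an adjusted p below 0.05 and was just under 2-fold.

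Of 15 intracellular partners 13 were tested, with 5 called higher, 0 lower and a median of 0.31. Over all genes tested, 13.1% were called higher and the median was 0.05. Cav3, Krt19 and Cmya5 had untreated means below 0.1 FPKM and passed the limit only through the 5-AZA samples. They could therefore only come out higher. Cav3, the caveolin of muscle, which binds dystroglycan, was listed at 0 in both untreated samples and at 4.30 and 6.89 FPKM after 5-AZA. Cav1, the caveolin of many other cells, rose from 29.7 and 25.7 to 70.0 and 73.0 FPKM, a log2 fold change of 1.37 (standard error 0.11), with the call lost without 5-AZA replicate 101 (adjusted p = 0.0557) or 102 (adjusted p = 0.0645). With its most abundant transcript alone the Cav1 difference was 3.57, still called. Krt8, whose keratin binds dystrophin in muscle as a pair with that of Krt19, was at 0.395 and 0.379 FPKM untreated and at 15.3 and 19.4 after 5-AZA, a log2 fold change of 5.15 (standard error 0.20). Krt19 was listed at 0 in both untreated samples and stayed low, at 0.154 and 0.277 FPKM after 5-AZA, and its call was lost under 7 of 12 alternatives, among them the omission of untreated replicate 1 (adjusted p = 0.108) or 2 (adjusted p = 0.111). Cmya5, which encodes myospryn, was at 0.400 and 0.551 FPKM after 5-AZA and almost 0 before, and was not called with a pseudocount of 1 (0.56). Plec, which encodes the linker plectin, differed by -0.31 (adjusted p = 0.210), Synj2bp, a mitochondrial membrane protein, by -0.04 (adjusted p = 0.865) and Synm, whose synemin binds dystrobrevin, by -0.59 (adjusted p = 0.0537). Nos1, the nitric oxide synthase that syntrophin holds at the muscle membrane, was below 0.1 FPKM in every sample and was not tested.

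Of 10 further genes of the muscle cell membrane, all were tested, with 5 called higher, 0 lower and a median of 1.08. Over all genes tested, 13.1% were called higher and the median was 0.05. Trim72, Capn3 and Ano5 had untreated means below 0.1 FPKM and passed the limit only through the 5-AZA samples. They too could only come out higher. Itga7, the integrin subunit that forms the other main laminin receptor of muscle, was at 0.527 and 0.391 FPKM untreated and at 7.12 and 9.92 after 5-AZA, a log2 fold change of 3.94 (standard error 0.24). Itgb1bp2, the muscle protein melusin, rose by 6.29. Without 5-AZA replicate 101 (6.49) or 102 (6.08) the difference was as large and the call was lost. The gene's own spread then came from the 2 untreated values and was drawn toward that of other genes, as for Sgca. Trim72, a membrane repair protein, rose by 5.29. Capn3 and Ano5, whose loss causes limb-girdle muscular dystrophy, stayed below 1 FPKM. Capn3 was at 0.0110 and 0 FPKM untreated and at 0.438 and 0.650 after 5-AZA, and Ano5 was listed at 0 in both untreated samples and at 0.251 and 0.433 FPKM after 5-AZA. With a pseudocount of 1 both were under 2-fold (0.62 and 0.42 on the log2 scale) and not called, and the Ano5 call was also lost with quantile normalization (adjusted p = 0.102). The broadly expressed Itgb1, the partner of Itga7, was at 228 to 247 FPKM in all samples and differed by -0.08 (adjusted p = 0.566). Ptrf (cavin 1) differed by 0.04 (adjusted p = 0.842), and Pgm5, which binds dystrophin and utrophin, by -0.58 (adjusted p = 0.00389, under 2-fold). Over the 5 lists, 12 of 56 genes tested were called higher and 0 lower. These calls include the genes named above that could only come out higher. Of all genes tested, 13.1% were called higher and 1.32% lower. Cav3, Krt8, Itga7 and Trim72 were called under 13 of 13 alternatives.

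**Figure D4:**
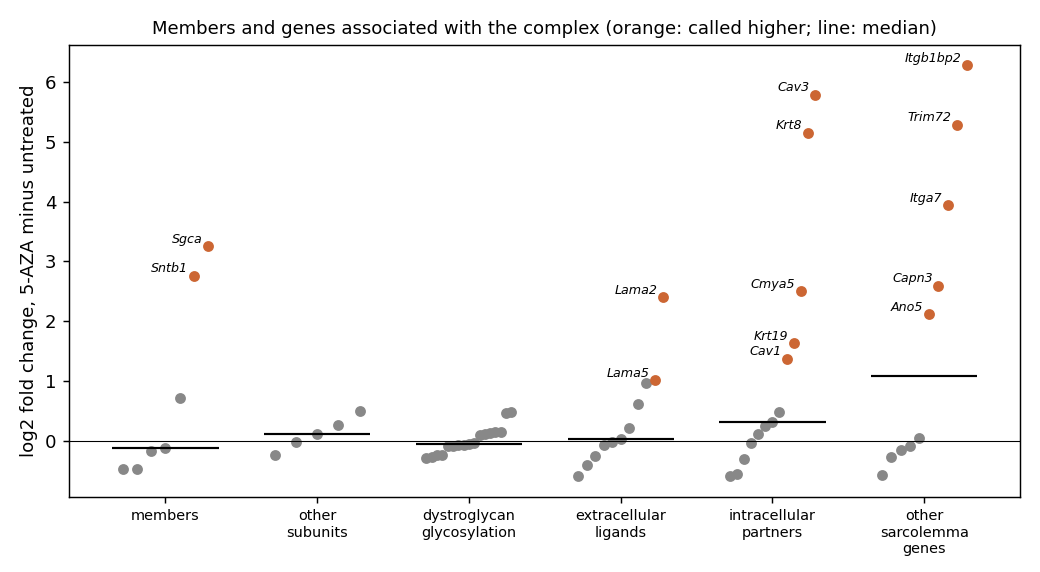
Log2 fold change of 5-AZA against untreated of the members and of each gene tested in 5 lists of associated genes, with called genes in orange and named and a black line at each list's median. The 17 glycosylation genes all lie within 2-fold, while 5 intracellular partners and 5 other membrane genes lie above it, with Cav3, Krt19 and Ano5 placed by the pseudocount since they were listed at 0 untreated.

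Circular RNAs, measured by the reads that cross a back-spliced junction and scaled to all reads sequenced (RPM), were listed for 4 of the 8 genes. They numbered 13 of 4295, of which 10 came from Utrn and 1 each from Sntb1, Dtna and Dag1. Utrn ranked 13 among 2199 host genes by number of circRNAs. The Utrn circRNAs had 34 and 14 junction reads in sum in the untreated samples and 19 and 12 in the 5-AZA samples, so the groups overlapped. Counted among them is circRNA_0324 (chr10:12861568-12941672), with 4 reads in untreated replicate 2, most of which lies beyond the Utrn gene (end at 12869888).

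Of the 10 from Utrn, 1 was detected in all 4 samples. It was circRNA_0317 (chr10:12436281-12455564, 725 bases), at 0.108 and 0.0856 RPM untreated and at 0.0753 and 0.0958 RPM after 5-AZA. These values stand for 10, 8, 7 and 9 reads. limma on log2 RPM gave a difference of -0.14 (standard error 0.27, adjusted p = 1.00 when rounded). The circRNA of Dag1, circRNA_4143 (chr9:108218013-108218410, of the exonic type), was listed at 0 in both untreated samples. In the 5-AZA samples it had 2 and 3 reads (adjusted p = 0.119, limma). It entered the test, which needs detection in 2 samples, only through the 5-AZA samples and could only come out higher. Since 2 reads were the fewest listed, a value of 0 can stand for 1 read. Of 1360 circRNAs tested limma called 0 (0%), while 91 lay higher and 160 lower with unadjusted p-values below 0.05. The members gave 4 of those tested.

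Noncoding transcripts that overlap the members were looked at too, chosen after seeing the data and described without a test. There were 124, of which 105 lay on the strand of the gene and 28 had a mean of at least 0.1 FPKM. Dmd overlapped 64, more than any other member, and 5 of these reached 0.1 FPKM. NONMMUT136160.1, on the strand of Dmd at chrX:82839597-82840846, was at 4.99 and 4.51 FPKM untreated and at 4.14 and 3.80 after 5-AZA, in the same samples in which the Dmd mRNA was below 0.1. NONMMUT023524.2, at the 3′ end of Sntb1 (chr15:55636390-55637192, same strand), was at 1.40 and 1.24 FPKM untreated and at 12.8 and 10.01 after 5-AZA. Since it lies within Sntb1 on the same strand, its signal and that of Sntb1 cannot be told apart. NONMMUT009497.2, at the 3′ end of Sgcd (chr11:46971079-46971870, same strand), was at 0.000248 FPKM in untreated replicate 1, at 42.1 in untreated replicate 2 and at 14.5 and 13.7 after 5-AZA. How fragments in such overlaps were divided was not measured.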

How the data were processed

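RNA of 2 untreated and 2 5-AZA samples of C3H10T1/2 was analysed. Per the labels and methods, ribosomal RNA was removed, libraries were stranded and reads were trimmed with Trimmomatic. The submitters' processing notes also list HISAT2, Bowtie2 2.2.9, eXpress 1.5.1 and mm9, without their roles. The authors deposited FPKM values per mRNA and lncRNA transcript and RPM values per circRNA. Transcript positions of 87.4% of 2131 circRNA host genes lay within the gene in GRCm38.p6 (to 1 base), so GRCm38 coordinates were used despite mm9.

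Transcripts were summed per gene. log2(FPKM + 0.1) was fitted with limma 3.58.1 (lmFit, eBayes with trend) in R 4.3.3 on every feature whose mean reached 0.1 FPKM, with Benjamini-Hochberg adjustment over all features tested. The count model of the study's methods needs counts and was not used. circRNAs detected in at least 2 samples were fitted on log2(RPM + 0.0213). All RPM values (100%) were whole multiples of 1 read's value to within 0.001. These steps correspond to 92903400 to 93920700 reads per sample, and mRNA FPKM sums ran from 328410 to 361664. The code of the fit was checked on simulated data. Spreads were shuffled over genes there, so the check does not give the error rate of the calls reported. With 2 samples against 2 no permutation test can pass 0.05. Promoter motifs were counted in windows of 300 bases.

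Members and lists were chosen with earlier results of these data known. Named were all members, their most abundant and called transcripts, every called gene of each list and its 3 most abundant others. Other pseudocounts, limits, scalings, eBayes without trend, transcript choices and the omission of each sample were tried. The GO and KEGG columns were not used, and some genes of the lists are not reported here.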

Additional observations from a re-analysis of the deposited data

How the results depend on the processing

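Over 90 alternative values of the 7 tested members, 85 kept direction and side of the threshold and 0 reversed. The other 5 were the losses of Sgca and Sntb1 given above, and Utrn, Dag1, Sgcb, Sgcd and Dtna were called under no alternative. The number of genes called, 1898 (1724 higher and 174 lower), was 961 with a pseudocount of 1, 1262 without the limit on low values and 967 with a limit of 1 FPKM, and ran from 851 to 1797 without 1 sample, lowest without 5-AZA replicate 102 and 1027 without 5-AZA replicate 101. Quantile normalization moved the median of all genes from 0.05 to -0.12 and gave 1041 higher and 886 lower, 54% higher against 90.8%. The associated lists held 12 calls, 7 with a pseudocount of 1 and 9 to 11 without 1 sample. For transcripts, 838 calls became 0 without the limit, and 0 to 57 without 1 sample, with 55 without untreated replicate 1, 57 without untreated replicate 2 and 0 without either 5-AZA replicate. The 0 circRNAs called stayed 0 to 0 without 1 sample, and 8 were called in a fit of those detected in all 4 samples, which was not repeated without a sample. Of 345 alternative values of the list genes named, 309 stayed, 24 lost and 1 gained a call and 11 changed sign, none of a called gene. These were Ptrf (-0.00088 with quantile normalization, -0.064 centred on the median), Sgce (-0.0019 centred on the median) and Sspn (0.038 with NM transcripts alone, 0.096 with the highest transcript alone), and without 1 sample Ptrf (-0.10 to 0.19), Tmem5 (-0.21 to 0.058), Synj2bp (-0.19 to 0.10) and Sspn (-0.082 to 0.034). NM_009161.4 of Sgca passed with eBayes without trend (adjusted p = 0.0406), where XM_006520671.3 did not (0.0869). The cause of the changes under these alternatives was not tested. No paired analysis was possible because the groups share no replicate numbers. The edgeR test on circRNA reads was not run.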
